A study of Mus musculus with 2 samples.

Results

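Opioid peptides are cut from precursor proteins, trimmed by processing enzymes and later degraded by peptidases, and 10 mouse genes for these steps were followed here. They are the precursor genes Penk, Pdyn, Pnoc and Pomc, the processing enzyme genes Pcsk1, Pcsk2 and Cpe, and the degrading enzyme genes Mme, Anpep and Dpp3. They were picked by gene symbol, not by a cutoff on a measured value, from the 19059 genes listed in the files. Earlier results of these data were known when they were picked. All 10 had at least 1 unique molecular identifier (UMI, a count of 1 captured probe molecule) in each library.

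The cells came from dorsal root ganglia of the neck, the ganglia that hold the cell bodies of sensory neurons, and their RNA was read with probes in fixed single cells. The study prepared 2 libraries, each made from pooled tissue. The control library had the genotype Foxp3 CreER; Penk fl/WT, and the Penk KO library the genotype Foxp3 CreER; Penk fl/fl, from littermates. Both groups carried the tamoxifen-dependent recombinase at the Foxp3 gene, which marks regulatory T cells, and at least 1 floxed Penk allele. Both received tamoxifen and a 3 day treatment with imiquimod, an agent that inflames the skin, and the tissue was fixed in 4% paraformaldehyde. The control therefore can lose Penk from 1 allele in recombined cells and is not a wild type. How many mice each pool held and their age, as well as where the Penk probes bind with respect to the floxed stretch, was not given in the sources used. With 1 library per genotype no test between genotypes was possible: each interval is a 95% interval that covers counting error only, and genotype and library cannot be told apart.

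The 2 libraries kept 15690 control and 12053 Penk KO cells, with medians of 2489 and 2252 UMIs per cell. Neurons made up 6805 and 5238 of them, with medians of 10608 and 7470.5 UMIs. Cells were grouped by expression without the 10 genes and named, with the ending "-like", from marker genes. Of 21 classes with at least 50 cells in both libraries, 10 were named neuron subtypes, 2 were unnamed neuron clusters that also carried glial genes, 7 were named non-neuronal classes and 2 were unnamed clusters outside neurons. Neuron cluster 15 held 400 control but 123 Penk KO cells. No cluster could be named as T cells. Levels are given in CPM, the UMIs of a gene scaled to 1000000 UMIs over all cells of the class. Probe number and efficiency differ between genes, so levels were compared between classes and libraries and not between genes.

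Neuronal RNA was also found outside neurons. A panel of 8 pan-neuronal genes summed to 10232 and 10181 CPM in control and Penk KO neurons and still to 6020 and 5844 CPM in non-neuronal cells. The libraries also shared 4723 droplet barcodes, which carried 30.1% of the kept control cells and 39.2% of the kept Penk KO cells. Both facts bear on low counts outside the class where a gene is highest, and their part in any one result was not tested except where values are given.

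Proenkephalin (Penk) gives Met- and Leu-enkephalin, prodynorphin (Pdyn) the dynorphins, pronociceptin (Pnoc) nociceptin and pro-opiomelanocortin (Pomc) beta-endorphin among other hormones. Enkephalins act mainly at the delta and mu opioid receptors, dynorphins at the kappa receptor and nociceptin at its own receptor. The convertases encoded by Pcsk1 and Pcsk2 cut precursors after pairs of basic residues in secretory vesicles, and carboxypeptidase E (Cpe) removes the basic residues left behind. Outside the cell, neprilysin (Mme) and aminopeptidase N (Anpep) break enkephalins down, and dipeptidyl peptidase III (Dpp3) is a mostly cytosolic peptidase that also cleaves them.

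The coding sequence shows the layout on which the processing enzymes work, and 5 stretches are printed to compare the opioid cores of the 4 precursors. Each is read 5′ to 3′ along the coding strand of GRCm39, with the 5 codons of the core in capitals and 2 flanking codons on each side in lower case.
Penk, Met-enkephalin core 1, chr4:4134328-4134354, minus strand: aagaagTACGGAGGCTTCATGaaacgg
Penk, Leu-enkephalin core, chr4:4133935-4133961, minus strand: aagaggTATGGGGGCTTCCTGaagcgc
Pdyn, Leu-enkephalin core 1, chr2:129530152-129530178, minus strand: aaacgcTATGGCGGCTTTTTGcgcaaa
Pnoc, nociceptin core, chr14:65642321-65642347, minus strand: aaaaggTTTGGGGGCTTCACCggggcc
Pomc, Met-enkephalin core, chr12:4010367-4010393, plus strand: aagcgtTACGGTGGCTTCATGacctcc
The Penk coding sequence of 268 codons held 7 such cores, 6 of Met-enkephalin and 1 of Leu-enkephalin, all 7 preceded by 2 codons for basic residues and 5 also followed by 2. Pdyn, with 248 codons, held 3 Leu-enkephalin cores, all 3 with basic pairs on both sides. Pnoc (187 codons) and Pomc (235 codons) each held 1 core with a basic pair before it and none directly after it. These sites lie in coding exons and say nothing about which probes were counted.

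**Figure D1:**
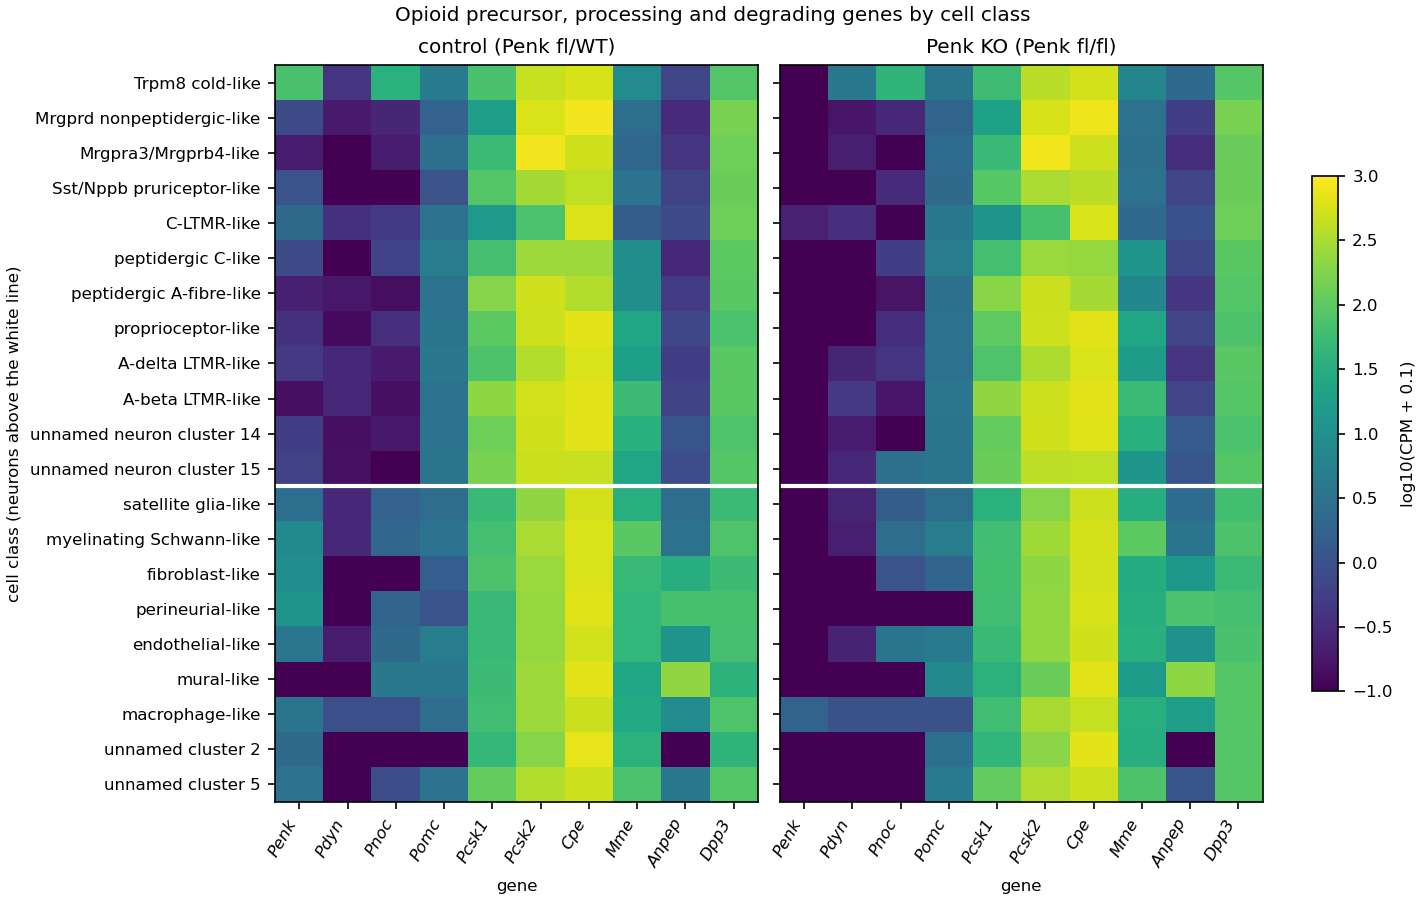
Level of each of the 10 genes (columns) in 21 cell classes (rows), as log10(CPM + 0.1), in the control library (left) and the Penk KO library (right); classes above the white line are neurons. The Penk column is dark in nearly all classes on the right, Pnoc is bright in the Trpm8 cold-like row on both sides, and Anpep is brightest in mural-like cells.

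Penk, the gene that the genotypes change, lies on the minus strand of chromosome 4 (4132722 to 4141856, GRCm39). Summed over cells of every class, 582 Penk UMIs were counted in the control library and 4 in the Penk KO library, or 2.25 and 0.0256 CPM. The Penk KO level was 0.0114 of the control level (interval 0.00309 to 0.0293). In neurons the counts were 351 and 1, and in non-neuronal cells 231 and 3. The Penk KO count was thus the lower in neurons and outside them. Foxp3 itself, whose locus drives the recombinase, had 10 control and 5 Penk KO UMIs in all, 7 and 3 of them in neurons. They lay in 9 control and 5 Penk KO cells, and no Penk UMI fell in these cells. In so few cells a Penk UMI would seldom be seen, so its absence decides nothing.

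Control Penk was highest in Trpm8 cold-like neurons, which carry the cold-gated channel gene Trpm8. They had 244 UMIs, 72.1 CPM (63.3 to 81.7), against 0 UMIs in the Penk KO library, at least 54.4-fold lower when 0 is set to a floor of 3 counts over the class. The class made up 1.73% of the control cells and held 41.9% of the control Penk UMIs. Penk was seen in 45 of 271 control cells, 16.6% (12.4 to 21.6; exact Clopper-Pearson), and 22 of those 45 had 3 or more UMIs. With the 4 Trpm8 cold markers all detected, Trpm8 stood at 2725 and 2879 CPM in the class. In proprioceptor-like neurons, a class taken as background at a like depth (median 8437 UMIs against 6706), 0.723% of control cells had a Penk UMI. With each cell thinned to 500 UMIs, 16 of the 244 UMIs were left. In the Penk KO library 0 of 217 Trpm8 cold-like cells had a Penk UMI.

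Among other neurons, C-fibre low-threshold mechanoreceptor (C-LTMR)-like cells, touch neurons that carry Th, had 25 control and 1 Penk KO UMIs, or 2.34 and 0.132 CPM. Of the 25, 9 lay in 1 cell. Mrgprd nonpeptidergic-like nociceptors had 30 and 0 UMIs, at least 6.43-fold lower in the Penk KO library. The Sst/Nppb pruriceptor-like, peptidergic C-like and proprioceptor-like classes had 6, 8 and 9 control UMIs and 0 Penk KO UMIs each. A-beta and A-delta LTMR-like, Mrgpra3/Mrgprb4-like and peptidergic A-fibre-like neurons had 1 to 4 control UMIs and 0 Penk KO UMIs, and neuron clusters 14 and 15 had 10 each and 0.

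Trpm8 counts give a measure of how far Penk outside the cold-like class went together with RNA of that class. Trpm8 cold-like control neurons had 2.65 Penk UMIs per 100 Trpm8 UMIs (2.32 to 3.00), and other neurons together had 3.05 (2.49 to 3.69). Peptidergic A-fibre-like neurons had 0.288 (0.0594 to 0.845) and C-LTMR-like neurons 25.3 (15.6 to 39.5). Sst/Nppb pruriceptor-like neurons, with 6 Penk UMIs, had 11.5 (4.05 to 26.9). The intervals in C-LTMR-like and Sst/Nppb pruriceptor-like neurons lay above that of the cold-like class and that in peptidergic A-fibre-like neurons below it; those of the other named subtypes overlapped it. Of the 8 control neurons outside the cold-like class with 3 or more Penk UMIs, 7 also held Trpm8 UMIs. The Trpm8 level of the 8 was 254 CPM, against 15.1 CPM in the neurons without Penk. The median depths were 57598 and 10740 UMIs, so depth moved with the detection of both genes.

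Outside neurons, myelinating Schwann-like cells had 132 control and 0 Penk KO UMIs, 8.03 CPM against 0 and at least 23.4-fold lower. A single cell held 70 of these 132 UMIs. It had 242349 UMIs in all, against a class median of 2424, together with 128 Trpm8 and 5 Pnoc UMIs. Without it the class had 62 Penk UMIs, 4.80 per 100 Trpm8 UMIs (3.66 to 6.2), against 9.30 with it.

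Endothelial-like cells had 34 and 0 Penk UMIs, at least 8.48-fold lower in the Penk KO library, and satellite glia-like cells 30 and 0, at least 5.65-fold lower. Fibroblast-like and perineurial-like cells had 12 control UMIs each, or 8.97 and 11.6 CPM, and 0 in the Penk KO library, at least 3.10-fold and 3.71-fold lower. Unnamed clusters 2 and 5 had 1 and 4 control UMIs and none in the Penk KO library, and mural-like cells had none in either. In proportion to Trpm8, fibroblast-like cells had 41.4 Penk UMIs per 100 (19.2 to 83.6), perineurial-like cells 21.4 (10.5 to 40.4) and endothelial-like cells 5.85 (4.01 to 8.27), each above the 2.65 of the cold-like neurons. Of the 10 non-neuronal control cells with 3 or more Penk UMIs, 9 held Trpm8 UMIs, at 603 CPM against 50.8 CPM in those without Penk. Of all 108 non-neuronal control cells with any Penk UMI, 47.2% also had Trpm8, against 7.30% of those without Penk; the median depths of these cells were 13173 and 1118 UMIs, so depth moved with both.

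Macrophage-like cells had 4 control and 2 Penk KO UMIs, a ratio of 0.517 (0.0468 to 3.61). The 4 UMIs of the Penk KO library were 2 in 1 macrophage-like cell, 1 in a C-LTMR-like cell and 1 in a small unnamed cluster. Non-neuronal cells with no UMI of the pan-neuronal panel, 496 in the control and 597 in the Penk KO library, held 4 and 3 Penk UMIs. At these counts no difference could be detected between the libraries in macrophage-like cells.

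**Figure D2:**
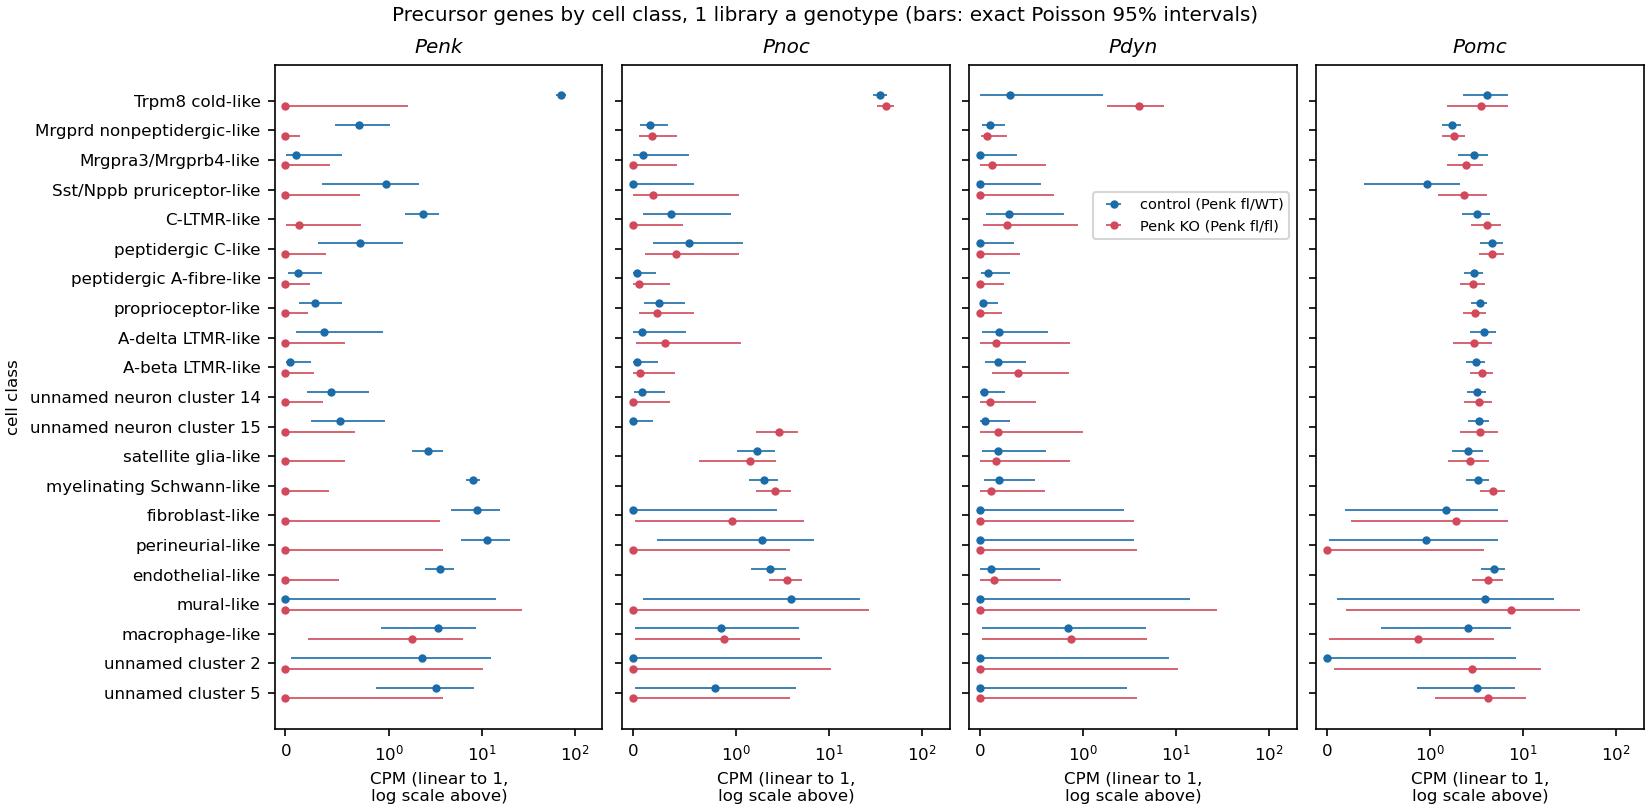
CPM of the 4 precursor genes in 21 cell classes (horizontal axis linear to 1 and on a log scale above), control in blue and Penk KO in red, with exact Poisson 95% intervals. Penk stands at 72.1 CPM in control Trpm8 cold-like neurons and at 0 in the Penk KO library, while Pnoc stands at 35.8 and 41.1 CPM in the same class.

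Pnoc (chromosome 14, minus strand, 65638122 to 65663196) was also highest in Trpm8 cold-like neurons, with 121 control and 93 Penk KO UMIs, or 35.8 (29.7 to 42.7) and 41.1 (33.1 to 50.3) CPM. The ratio was 1.15 (0.867 to 1.52), so that within this class a difference was not detectable at this depth. Pnoc was seen in 49 of 271 control cells (18.1%) and 41 of 217 Penk KO cells (18.9%), against 0.633% and 0.443% of proprioceptor-like cells. The class held 51.9% of the control Pnoc UMIs and 50% of those of the Penk KO library. In the class where Penk was at 0 in the Penk KO library, Pnoc was thus counted in both libraries.

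Penk and Pnoc were found in overlapping sets of cold-like cells. In the control, 26 cells had both, 19 had Penk without Pnoc, 23 had Pnoc without Penk and 203 had neither. Pnoc was seen in 57.8% of the cells with Penk and 10.2% of the others. The median depth was 8214 UMIs in cells with both, 11108 with Penk alone, 7634 with Pnoc alone and 5299 with neither, so detection and depth moved together. The co-detection is a count over cells of 1 library and was not tested.

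Over all neurons, Pnoc had 152 control and 127 Penk KO UMIs, a ratio of 1.39 (1.09 to 1.78), and outside the cold-like class 31 and 34 UMIs, a ratio of 1.83 (1.09 to 3.08). Neuron cluster 15 held 0 of these 31 control UMIs and 16 of these 34 Penk KO UMIs. Of the 21 classes it was the only one whose Pnoc interval left 1, and in 0 of the 10 named subtypes did it do so. The ratios over pooled neurons thus leaned on this cluster. Those 16 UMIs came from 2 cells, 10 of them from 1 cell, and the 2 cells also held 154 Trpm8 UMIs. In proportion to Trpm8, Pnoc in all neurons stood at 1.19 UMIs per 100 in the control (1.01 to 1.40) and 1.34 in the Penk KO library (1.12 to 1.60). With each cell counted equally the ratio over neurons was 1.01, and with cells thinned to 500 UMIs it was 0.899, from 13 and 9 UMIs. The other settings stayed within the interval. The ratio was 1.61 in droplets of 1 library, 1.35 without the top cell of each library and 1.14 with named classes counted equally. It was 1.41 without the deepest 10% of cells and 1.39 in cells with at least 1000 UMIs.

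Outside neurons Pnoc followed Trpm8 in a different proportion. Non-neuronal cells had 81 control and 59 Penk KO Pnoc UMIs, or 3.07 (2.43 to 3.83) and 3.77 (2.86 to 4.90) per 100 Trpm8 UMIs, above the 1.31 and 1.43 of cold-like neurons. Most of the UMIs lay in myelinating Schwann-like cells (33 and 23), endothelial-like cells (22 and 25) and satellite glia-like cells (19 and 9). Trpm8 was seen in 79.6% of the control and 87.1% of the Penk KO non-neuronal cells with Pnoc, against 7.35% and 7.08% of those without. Depth moved with this too: the medians were 23139 and 1124 UMIs with and without Pnoc in the control, and 8847 and 1115 in the Penk KO library. No Pnoc UMI fell in a non-neuronal cell free of the pan-neuronal panel, in either library. These were only 496 control and 597 Penk KO cells. Pnoc stood at 1.88 and 2.19 CPM over all non-neuronal cells. At such levels few or no Pnoc UMIs would be seen in so small a set, so their absence decides nothing.

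Pdyn (chromosome 2, minus strand, 129528469 to 129541945) was near the limit of detection, with 26 UMIs in each library. In Trpm8 cold-like neurons it had 1 control and 9 Penk KO UMIs, or 0.295 and 3.97 CPM, a ratio of 13.4 with a wide interval (1.86 to 589). The 9 UMIs lay in 9 cells of 1 UMI each, and 7 of these 9 cells were in droplets whose barcode the control library also had. In droplets found in the Penk KO library alone, 2 of 133 cold-like cells had a Pdyn UMI. The difference also rested on how the class was drawn. At a finer clustering (resolution 2) the cold-like class had 0 control and 1 Penk KO Pdyn UMIs, and 7 of the 9 UMIs fell in a separate unnamed cluster of 35 control and 22 Penk KO cells. That small cluster had 1 control and 7 Penk KO Pdyn UMIs, no Penk or Pnoc UMI in either library, and Trpm8 at 11.2 and 0 CPM, against 3149 and 3170 CPM in the cold-like class of that clustering. No cold-like cell had both Pdyn and Pnoc. In the other 20 classes Pdyn had at most 5 UMIs in either library.

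Pomc (chromosome 12, plus strand, 4004944 to 4010642) had 779 control and 488 Penk KO UMIs, 3.01 and 3.12 CPM, and was spread thinly over the classes. In the 10 named neuron subtypes it ran from 0.973 CPM (Sst/Nppb pruriceptor-like) to 4.62 CPM (peptidergic C-like) in the control and from 1.82 CPM (Mrgprd nonpeptidergic-like) to 4.66 CPM (peptidergic C-like) in the Penk KO library. Levels were 2.95 and 3.00 CPM in neurons and 3.27 and 3.67 CPM outside them. The intervals of the highest and the next class overlapped in both libraries, and in no class did the interval of the ratio leave 1.

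Of the processing enzymes, Pcsk1 (chromosome 13, 75237284 to 75284898) was highest in A-beta LTMR-like neurons, fast-conducting touch neurons, at 211 control and 216 Penk KO CPM. Peptidergic A-fibre-like nociceptors followed at 190 and 197 CPM, and the intervals of these neighbours did not overlap in either library. Their order depended on the clustering: at resolution 0.5 peptidergic A-fibre-like neurons were the highest class in both libraries, at 287 and 294 CPM. C-LTMR-like neurons were lowest, at 14.3 and 11.5 CPM, next to Mrgprd nonpeptidergic-like neurons at 16.5 and 19.6 CPM. The intervals of these lowest classes overlapped in the control (12.1 to 16.8 and 15.3 to 17.8) and were apart in the Penk KO library (9.20 to 14.2 and 18 to 21.3).

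Over all neurons Pcsk1 stood at 103 control and 95.7 Penk KO CPM, a ratio of 0.930 (0.909 to 0.95), but in 6 of the 10 named subtypes it was higher in the Penk KO library. Counting each named class equally gave 1.01 and counting each cell equally 1.04. Both unnamed neuron clusters were lower in the Penk KO library, cluster 14 with a ratio of 0.867 and cluster 15 with 0.833 (0.767 to 0.905). Among named subtypes the interval left 1 in Mrgprd nonpeptidergic-like neurons alone, with a ratio of 1.18 (1.06 to 1.33). Satellite glia-like cells had 49.7 and 36.4 CPM, a ratio of 0.732 (0.625 to 0.855). These levels were 0.483 and 0.380 of those in neurons, within the range of the pan-neuronal panel genes in that class in both libraries. The summed panel in that class was 4955 control and 4513 Penk KO CPM.

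Pcsk2 (chromosome 2, 143387993 to 143659507) had another order. It was highest in Mrgpra3/Mrgprb4-like neurons, which include itch neurons, at 836 and 813 CPM, then in Mrgprd nonpeptidergic-like neurons at 584 and 567 CPM. C-LTMR-like neurons were again lowest, at 73.2 and 68.8 CPM. The intervals of the highest classes were apart in both libraries. Mrgprd nonpeptidergic-like neurons were thus near the bottom of the order for Pcsk1 and second for Pcsk2.

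The Pcsk2 ratio over all neurons was 0.955 (0.946 to 0.965), and 8 of 10 named subtypes were lower in the Penk KO library, 4 of them with an interval below 1. Trpm8 cold-like neurons had 458 and 381 CPM, a ratio of 0.830 (0.763 to 0.903). In A-beta LTMR-like neurons the ratio was 0.924 (0.897 to 0.952) and in peptidergic A-fibre-like neurons 0.941 (0.914 to 0.968). With cells thinned to 500 UMIs the ratio over neurons was 1.01. Mural-like cells, which surround small vessels, had 68 and 17 Pcsk2 UMIs, a ratio of 0.480 (0.264 to 0.825).

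Cpe (chromosome 8, 65045555 to 65146435) varied least among the processing enzymes, from 264 CPM (peptidergic C-like) to 848 CPM (Mrgprd nonpeptidergic-like) in the control and from 232 to 805 CPM, in the same classes, in the Penk KO library. Its ratio over neurons was 0.941 (0.932 to 0.949). It was lower in the Penk KO library in 20 of 21 classes, 12 of them with an interval below 1, and slightly higher in A-beta LTMR-like neurons alone (655 and 658 CPM). The lowest ratio of a class was 0.836 (0.806 to 0.866), in peptidergic A-fibre-like neurons with 352 and 294 CPM. These shifts are small in size and rest on 1 library per genotype.

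**Figure D3:**
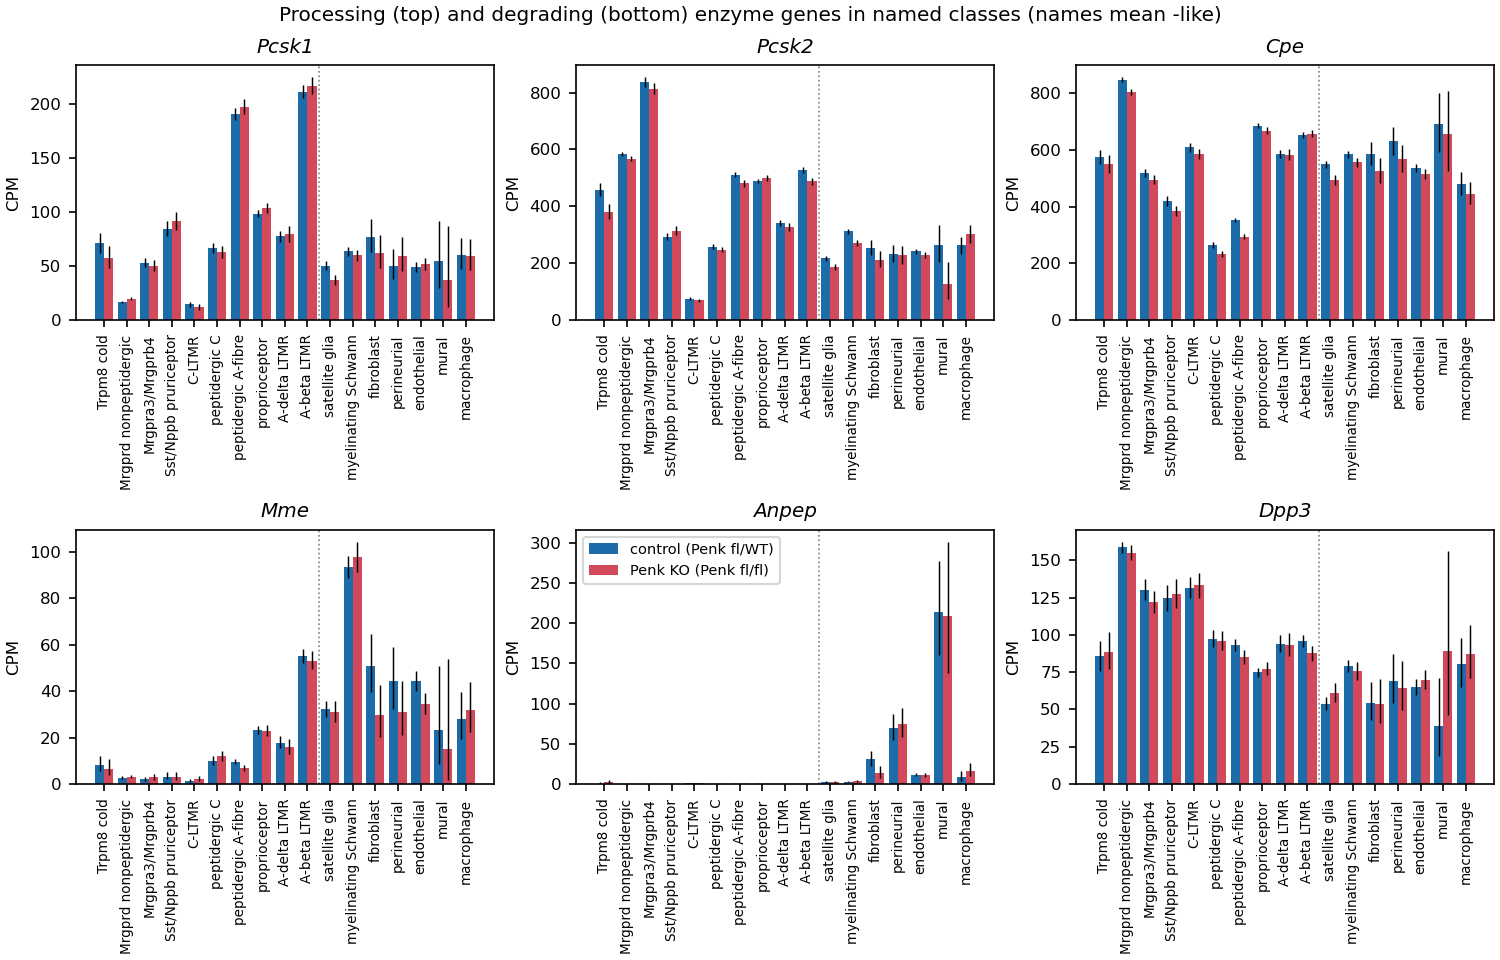
CPM of the 3 processing enzyme genes (top) and the 3 degrading enzyme genes (bottom) in named classes, control in blue and Penk KO in red, with exact Poisson 95% intervals; neurons stand left of the dotted line. Pcsk1 and Pcsk2 peak in different neuron subtypes, Mme peaks in myelinating Schwann-like cells at 93.4 and 97.6 CPM, and Anpep in mural-like cells at 214 and 209 CPM.

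Among the degrading enzymes, Mme (chromosome 3, 63148889 to 63293451) was highest in myelinating Schwann-like cells, at 93.4 control and 97.6 Penk KO CPM, with an interval that overlapped that of unnamed cluster 5 (73.7 and 76.3 CPM). Among the named neuron subtypes it was highest in A-beta LTMR-like cells, at 55.1 and 53.1 CPM, followed by proprioceptor-like cells at 23.3 and 23.0 CPM, and unnamed neuron cluster 14 lay between them at 34.5 and 34.4 CPM. Mrgprd nonpeptidergic-like neurons were low, at 2.72 and 3.12 CPM, and so were C-LTMR-like neurons, at 1.40 and 2.24 CPM. Peptidergic C-like neurons had more, at 9.88 and 11.9 CPM, beside 9.60 and 6.90 CPM in peptidergic A-fibre-like neurons. The Mme level was thus higher in A-beta LTMR-like and proprioceptor-like neurons than in these classes.

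Over all neurons Mme had a ratio of 0.854 (0.809 to 0.902), and cluster 15 alone one of 0.573 (0.439 to 0.740) with 22.2 and 12.7 CPM. Among named subtypes 6 of 10 were lower in the Penk KO library, 1 of them with an interval below 1: peptidergic A-fibre-like neurons, with 9.60 and 6.90 CPM, a ratio of 0.719 (0.567 to 0.907). With each cell counted equally the ratio over neurons was 1.05. Outside neurons it was 0.588 (0.372 to 0.912) in fibroblast-like cells, from 68 and 31 UMIs, and 0.779 (0.662 to 0.914) in endothelial-like cells, from 419 and 244.

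Anpep (chromosome 7, 79471551 to 79510807) was highest in mural-like and then in perineurial-like cells in both libraries. Mural-like cells had 214 control (161 to 278) and 209 Penk KO (139 to 301) CPM, perineurial-like cells 69.4 and 74.8 CPM and endothelial-like cells 11.5 and 11.4 CPM. Macrophage-like cells had 8.53 and 16.8 CPM, from 10 and 19 UMIs. Neurons had 0.523 and 0.618 CPM. An Anpep UMI was seen in 21.3% and 20.5% of mural-like cells, against 1.56% and 1.30% of neurons, which were sequenced far deeper. Fibroblast-like cells differed between the libraries, with 41 and 14 UMIs, 30.6 and 13.5 CPM, a ratio of 0.440 (0.222 to 0.825).

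Dpp3 (chromosome 19, 4957254 to 4978315) was found in every class. It was highest in Mrgprd nonpeptidergic-like neurons, at 159 and 155 CPM, followed by C-LTMR-like neurons at 132 and 133 CPM, and lowest among named subtypes in proprioceptor-like neurons, at 74.8 and 77.3 CPM. Over neurons the ratio was 1.00 (0.980 to 1.02), and outside them 1.04 (0.984 to 1.11). Peptidergic A-fibre-like and A-beta LTMR-like neurons were the named subtypes with an interval below 1, with ratios of 0.911 and 0.916. Outside neurons unnamed cluster 2 had 18 and 30 UMIs, 41.2 and 85.2 CPM, a ratio of 2.07 (1.12 to 3.94), and mural-like cells 10 and 12 UMIs, a ratio of 2.30 (0.912 to 5.95).

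Levels outside neurons were read against the pan-neuronal panel, whose 8 genes in non-neuronal cells had 0.507 to 0.659 of their control neuronal level and 0.488 to 0.646 of their Penk KO neuronal level. Pcsk1 (0.564 and 0.555) and Pcsk2 (0.545 and 0.509) lay within that range over all non-neuronal cells, a level no higher than that of the panel. By class, Pcsk1 was above the panel in fibroblast-like cells (0.748 and 0.645) and in unnamed cluster 5 (1.10 and 1.14) in both libraries and below it in myelinating Schwann-like cells (0.614 and 0.622). Pcsk2 was within or below the panel's range in each class of both libraries. Dpp3 was at its upper edge, within it in the control (0.633) and above it in the Penk KO library (0.660). Cpe had 0.924 and 0.918, Pomc 1.11 and 1.22, Mme 3.30 and 3.54 and Anpep 16.8 and 16.1, all above the panel. Penk (3.30) and Pnoc (2.67 and 2.23) were also above it, beside the Trpm8 counts given above.

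**Figure D4:**
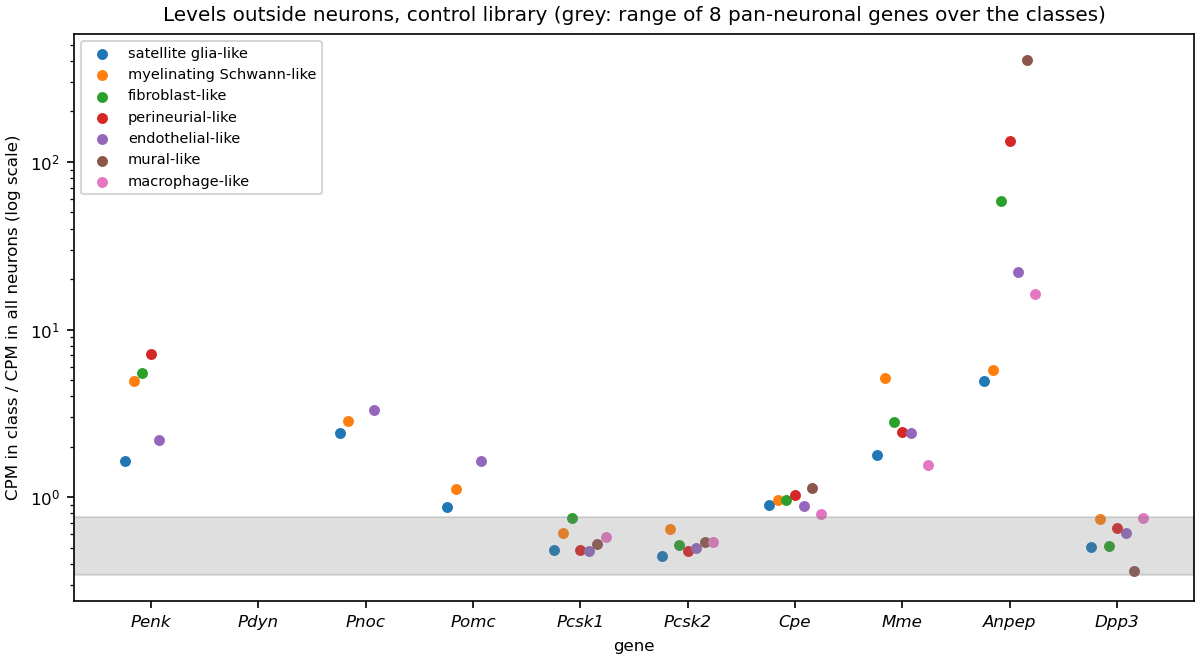
CPM in each named non-neuronal class divided by CPM in all neurons of the control library (log scale), for genes with at least 10 UMIs in the class; the grey band is the range of the 8 pan-neuronal genes over the same classes. The band spans classes, so it is wider than the panel's range in any 1 class. Pcsk1 and Pcsk2 points lie within the band, Mme and Anpep points above it; no Pdyn point reached 10 UMIs.

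The members were then set against all genes. In neurons, 1 of the 9 members with at least 100 UMIs over both libraries (Penk) was past 1.5-fold, where 1.21% of 13580 genes were (0.383% higher and 0.825% lower in the Penk KO library). The median ratio of the 9 was 0.955, beside 0.996 over all genes. Pdyn, with too few UMIs for the call, had 19 control and 22 Penk KO UMIs in neurons, a ratio of 1.93 (0.998 to 3.77). In droplets of 1 library the Pdyn ratio was 1.26, from 10 and 7 UMIs. It was 4.67 with each cell counted equally, 4.33 with named classes counted equally and 2.69 without the deepest 10% of cells. In non-neuronal cells 1 of 9 (Penk again) was past 1.5-fold, where 1.84% of 12963 genes were (1.32% higher and 0.517% lower), and the median ratio was 0.935 beside 1.01 over all genes.

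Other genes of the same pathway were taken from 4 lists. None of the 4 eligible opioid receptor genes, 14 other processing genes, 5 granin genes or 16 other peptidase genes was past 1.5-fold in neurons, and none of 3, 13, 5 and 17 in non-neuronal cells. The median ratios of the lists in neurons were 1.06, 0.994, 0.975 and 1.01. Among the most abundant, Oprm1 (the mu opioid receptor) had 199 and 229 CPM in neurons, a ratio of 1.15 (1.14 to 1.17), and Oprl1 (the nociceptin receptor) 16 and 15.4 CPM. Oprl1 was highest in Trpm8 cold-like neurons in the control, the class where its ligand gene Pnoc was also highest.

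Pcsk1n, which encodes an inhibitor of the Pcsk1 convertase, had 1350 and 1358 CPM in neurons, and Ctsl, a cathepsin, 929 and 999 CPM. The granin genes Scg3 and Vgf, whose proteins are packed into dense-core vesicles, had 989 and 1069 CPM and 364 and 355 CPM. The peptidase genes Lnpep and Dpp8 had 352 and 356 CPM and 207 and 207 CPM. The largest shift over all neurons among these named genes, that of Oprm1, was still within 1.5-fold.

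**Figure D5:**
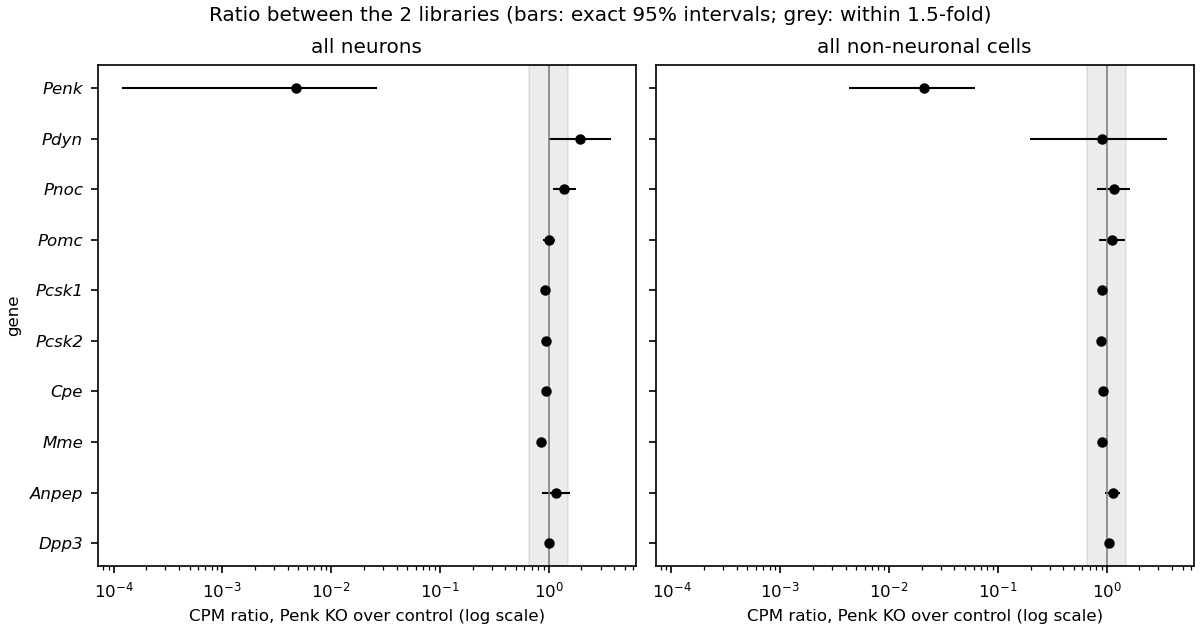
Ratio of CPM, Penk KO over control (log scale), for the 10 genes in all neurons (left) and all non-neuronal cells (right), with exact 95% intervals for counting error; the grey band is within 1.5-fold. Penk lies far to the left of the band in both panels, and Pdyn, with few UMIs, has the widest interval of the other genes in non-neuronal cells.

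The genes most like each member across the 21 classes were found in the control by the correlation of log2(CPM + 1), given as a description over classes that share a library, with its value in the Penk KO library beside it. For Penk they were Cpxm2 (r = 0.95), Dnah6 (0.86) and Foxp2 (0.85), each highest in Trpm8 cold-like neurons, a class that Foxp2 helped to name. For Pnoc they were Slc34a2 (0.92 and 0.84), Grm3 (0.92 and 0.85) and Hjurp (0.89 and 0.81), highest in the same class. Pcsk1 was most like Stxbp5l (0.90 and 0.88), Pcsk2 most like St8sia1 (0.88 and 0.87) and Cpe most like Prokr1 (0.76 and 0.77).

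For Mme the nearest genes were Otud7b (0.92 and 0.89) and Sgk1 (0.91 and 0.87), both highest in myelinating Schwann-like cells. Anpep was nearest to Pygm (0.98 and 0.86), Hic1 (0.97 and 0.90) and Cd248 (0.97 and 0.91), of which Pygm and Cd248 were highest in mural-like cells. Dpp3 was nearest to Fbxw9 (0.93 and 0.79). For Pomc the nearest gene in the control, Tecpr1 (0.81), had r = 0.21 in the Penk KO library. With a pseudocount of 10 in place of 1 the nearest gene changed for 4 of the 9 genes ranked: to Grm3 for Pnoc, Hoxd8 for Pomc, Slc19a2 for Pcsk1 and Zfp385b for Cpe.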

How the data were processed

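The deposited files hold raw UMI counts per gene and cell barcode, made by the authors with Cell Ranger on GRCm39, version 7.0 per the labels' protocol and 8.0.1 per the file headers. The submitters' processing notes list Seurat too, without saying for what. The deposited values are whole-number counts with no scaling, and no barcode held fewer than 496 UMIs. Totals were 259136217 UMIs over 15710 control barcodes and 156441497 over 12067 Penk KO barcodes.

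The cell filter asked for 500 or more UMIs and 300 or more genes (20 and 14 cells removed). No doublet caller was run and all other cells were kept. Both libraries were clustered together (scanpy 1.11.5; 10000 counts per cell, log1p, 3000 variable genes without the 10 members, 40 components, 15 neighbours, Leiden resolution 1.0 with igraph 0.11.9), and neurons once more on their own. Clusters were named from marker lists; those with more markers of another class among their top 10 genes, or fewer than 3 detected markers, stayed unnamed.

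For each class and library the UMIs were added up and scaled to CPM, with exact Poisson intervals; ratios have exact conditional binomial intervals, and shares of cells exact Clopper-Pearson intervals (95%; SciPy 1.17.1). A gene was eligible for the 1.5-fold call with at least 100 UMIs over both libraries. A library at 0 was set to a floor of 3 counts over the class, and no fold is given where both libraries have 3 UMIs or fewer. The fold calls were also run on simulated neuron counts with 2-fold changes up or down in 200 genes. That simulation held counting error only, so it cannot show how calls behave under variation between libraries. Coding sites were read from the GRCm39 genome and its GENCODE annotation.

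All 10 members are named. Of each pathway list, genes past the fold and the 2 with the highest CPM in control neurons are named, and of the likeness ranking up to 3 genes per member. The members and lists were chosen with earlier results of these data known. The counts per 100 Trpm8 UMIs, the values for single cells and the Pdyn counts of the finer clustering were added after the levels were seen. Alternatives were thinning to 500 UMIs, equal weights for cells or classes, droplets of 1 library, leaving out the top cell or the deepest 10% of cells, 1000 UMIs per cell, other resolutions, other folds and minimums, a pseudocount of 10 and TMM scaling (edgeR 4.0.16).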

Additional observations from a re-analysis of the deposited data

How the results depend on the processing

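Each choice was changed on its own. Of the recomputed ratios of the members, 105 stayed within the counting interval of the reported value, 28 moved outside it, and 6 whose interval had left 1 changed direction. Those 6 were the neuronal ratios of Pnoc (0.899) and Pcsk2 (1.01) with cells thinned to 500 UMIs, of Pcsk1 (1.04) and Mme (1.05) with each cell counted equally and of Pcsk1 (1.01) with named classes counted equally, and the non-neuronal ratio of Pcsk1 (1.02) without the deepest 10% of cells; the cause was not tested. The recomputed Penk ratios ran from 0 to 0.0543. In non-neuronal cells with no UMI of the pan-neuronal panel, Penk had 9.82 CPM in the control (4 UMIs) and 5.72 CPM in the Penk KO library (3 UMIs). Each of the 20 levels lay beyond the counting interval of all non-neuronal cells, which leaves out the counting error of this small set. In both libraries Anpep rose and Pcsk1, Pcsk2, Cpe and Dpp3 fell. Penk and Mme (27 control and 33 Penk KO UMIs) read higher. Pomc (1 UMI in each library), Pdyn and Pnoc (0 UMIs in each) read lower. At the counts of these 5 genes no direction can be read. Control Pcsk2 went from 265 to 130 CPM, Pcsk1 from 58.1 to 29.5 and Dpp3 from 67.6 to 29.5. Control Cpe went from 563 to 471 CPM and Anpep from 8.77 to 51.5.

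Genes past the fold in neurons numbered 164. There were 17 at 2-fold, 516 with a minimum of 20 UMIs and 50 with thinned cells, which leave fewer genes eligible. In non-neuronal cells they numbered 238, with 42 at 2-fold, 605 at 20 UMIs and 135 thinned. Members past the fold in neurons were 1, but 2 at 20 UMIs (Penk and Pdyn), 2 in droplets of 1 library (Penk and Pnoc) and 0 thinned, where Penk fell below 100 UMIs; in non-neuronal cells they were 1, and 0 thinned. TMM scaling gave 163 and 232 genes. The class with the highest level stayed in 30 cases and moved in 4 at other clusterings: Pcsk1 to peptidergic A-fibre-like neurons in both libraries at resolution 0.5, Pomc in the control and Pdyn in the Penk KO library at resolution 2. No paired analysis was possible because each genotype has 1 library. Pdyn had at most 9 UMIs in any class and library, which limits what can be said of it.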
